A study of Homo sapiens with 6 samples.

Results

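R-loop peaks deep inside protein-coding genes numbered 454 of the 10231 peaks mapped in untreated cells and 498 of the 11085 mapped in N2-heptynyl-dG-treated cells, 952 of 21316 in all. A peak was counted here when its midpoint lay within a protein-coding gene record of GENCODE release 44 lifted to GRCh37 and more than 2000 bp from the start and from the end of every annotated transcript of any gene. These deep gene-body peaks made up 4.44% (95% Wilson interval 4.06 to 4.85) of the untreated list and 4.49% (4.12 to 4.89) of the treated list. The intervals given throughout cover counting error over peaks only, since peaks of 1 list are not replicates of a condition.

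The peaks came from spKAS-seq, a strand-specific method in which N3-kethoxal tags guanines that are not base-paired, in wild-type HEK293T cells, a human embryonic kidney line. Cells were either left untreated or exposed to 10 μM N2-heptynyl-dG, a deoxyguanosine with an alkyl chain on its amino group, for 3 h, and all groups were then labelled with 5 mM N3-kethoxal for 10 min. Each condition had 2 labelled samples, with 2 inputs of untreated cells, but 1 peak list, attached to its replicate 1. By the study's methods both replicates entered the identification of R-loops, so that a list may stand for both. No test between the conditions was made from these lists, which hold a position and a strand for each peak, without heights or p-values, so that the reads behind a given peak cannot be counted. Borders fell on a 250-bp grid, and every deep gene-body peak was a multiple of 250 bp wide, from 500 to 3750 bp.

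An R-loop is a nascent RNA paired to its DNA template, which leaves the other DNA strand unpaired and open to reagents such as kethoxal. R-loops are best known at promoters with CpG islands and at the ends of genes. Runs of guanine on the displaced strand are known to favour the hybrid and can fold into G-quadruplexes. Within a gene body the displaced strand of an R-loop made by that gene's own transcript is the strand that bears the gene's sense sequence, termed the gene strand below.

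The central bases of a few deep gene-body peaks are given first, from hg19 (GRCh37) and read 5′ to 3′ on the strand of the peak, with every run of 3 or more guanines in capitals. CFAP92 held the widest deep gene-body peak without a partner in treated cells, and TMPRSS9 the widest one centred on coding sequence.
CFAP92, chr3:128640712-128640911, plus strand: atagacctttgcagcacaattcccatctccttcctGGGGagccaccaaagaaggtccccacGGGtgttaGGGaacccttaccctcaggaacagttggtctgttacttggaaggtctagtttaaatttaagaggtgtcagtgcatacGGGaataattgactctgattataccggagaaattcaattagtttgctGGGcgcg
TMPRSS9, chr19:2422120-2422319, minus strand: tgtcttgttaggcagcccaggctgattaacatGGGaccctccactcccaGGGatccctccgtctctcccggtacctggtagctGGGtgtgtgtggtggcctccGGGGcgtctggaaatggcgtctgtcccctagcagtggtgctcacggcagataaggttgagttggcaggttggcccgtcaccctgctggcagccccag
The CFAP92 stretch held 5 runs of guanine in 200 bases and the TMPRSS9 stretch 4.

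The second set shows 150 bases each from 4 peaks with a strong excess of G over C on the peak strand, which were chosen after their values were seen.
BAHCC1, chr17:79399106-79399255, plus strand: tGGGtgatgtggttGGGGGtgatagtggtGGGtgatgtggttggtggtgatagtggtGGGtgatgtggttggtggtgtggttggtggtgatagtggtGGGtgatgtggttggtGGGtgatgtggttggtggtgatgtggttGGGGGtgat
CELF2, chr10:11326051-11326200, plus strand: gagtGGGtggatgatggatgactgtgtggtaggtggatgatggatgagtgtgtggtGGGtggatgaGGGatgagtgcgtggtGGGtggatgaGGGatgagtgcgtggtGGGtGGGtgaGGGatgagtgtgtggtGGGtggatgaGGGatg
CEP72, chr5:649301-649450, plus strand: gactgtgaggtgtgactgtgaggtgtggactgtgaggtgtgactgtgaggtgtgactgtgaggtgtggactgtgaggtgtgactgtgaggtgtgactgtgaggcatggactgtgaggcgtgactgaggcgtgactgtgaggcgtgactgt
TERT, chr5:1273051-1273200, minus strand: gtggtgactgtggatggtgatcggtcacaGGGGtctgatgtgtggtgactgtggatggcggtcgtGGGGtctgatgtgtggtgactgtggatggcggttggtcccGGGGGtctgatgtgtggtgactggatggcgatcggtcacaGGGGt
All 4 lay in introns and were built of short tandem units rich in G and T, and that of CEP72 had no run of 3 guanines in the stretch shown.

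Peaks deep inside genes were sparse. Positions that met the rule, sampled every 1000 bp, covered 923.1 Mb with chromosome Y included, made up 30.3% of chromosomes 1 to 22 and X, and are called the deep territory below. Deep gene-body peaks fell there at 0.492 per Mb in untreated and 0.539 per Mb in treated cells, whereas the other peaks fell at 4.59 and 4.97 per Mb of the remaining sequence. They were spread over 428 host genes in untreated and 456 in treated cells, of the 14018 coding genes with deep territory, and 208 host genes were in both lists (48.6% of the untreated and 45.6% of the treated hosts). Merged by strand across the lists, the peaks formed 743 loci in 676 host genes, and 627 of these genes held a single locus.

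The first question was how many deep gene-body peaks were found in both lists. A peak on the same strand in the other list overlapped 221 of 454 untreated peaks by at least 1 bp (48.7%, 95% interval 44.1 to 53.3), where the share over all untreated peaks was 74.6%. For treated peaks it was 225 of 498 (45.2%, 40.9 to 49.6), where the share over all treated peaks was 69.2%. Deep gene-body peaks thus had a partner less often than the remaining peaks of their list, by 27.2 percentage points (22.5 to 31.8) in untreated and 25.2 (20.7 to 29.6) in treated cells. The difference held within each width. At 500 bp, 35.4% of the untreated deep peaks and 65.1% of the other untreated peaks had a partner, and over 1000 bp these shares were 75.8% and 93.3%. In treated cells the shares were 30.2% against 55.7% at 500 bp and 77.8% against 94.6% over 1000 bp.

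**Figure D1:**
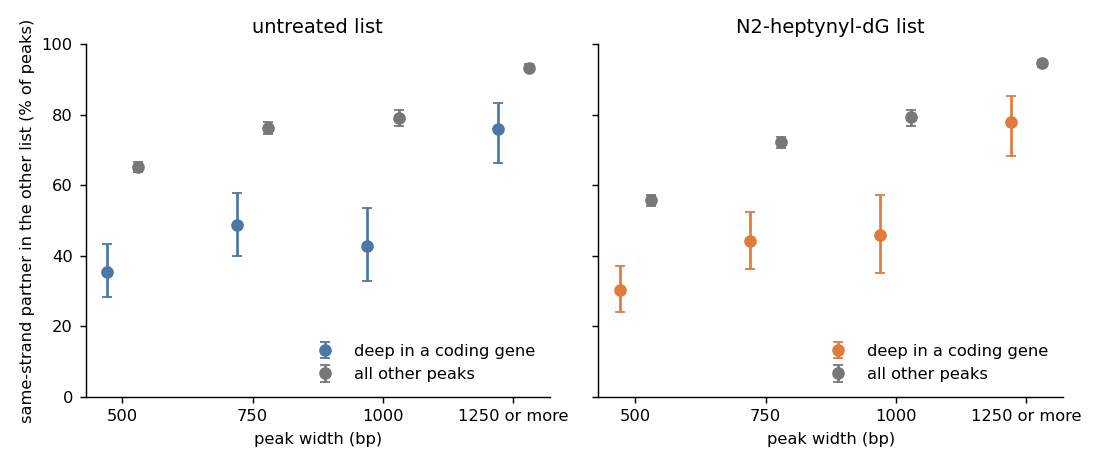
Share of peaks (%) with a same-strand partner in the other list against peak width (bp), for deep gene-body peaks (coloured) and all other peaks (grey) of the untreated list (left) and the N2-heptynyl-dG list (right), with 95% Wilson intervals. Deep gene-body peaks lay below the other peaks at each width in both lists, from 35.4% against 65.1% at 500 bp in untreated cells to 77.8% against 94.6% over 1000 bp in treated cells.

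Where deep peaks were paired one to one between the lists, 199 pairs in all, 71 were of equal width, 60 were wider after treatment and 68 were narrower, and the width differed by -26.4 ± 478 bp (treated minus untreated, mean ± SD over pairs). In 58 cases both borders were identical. RPS24, a protein of the small ribosomal subunit, held one of these at chr10:79801149-79804898, with the same 3750 bp in both lists. SIL1, a nucleotide exchange factor of the endoplasmic reticulum, held a second, 3250 bp wide at chr5:138621522-138624771 and on the strand opposite to the gene. The widest peaks without a partner were narrower, with 2250 bp in CFAP92 at chr3:128639687-128641936 in treated cells. Of the 743 loci, 237 were in both lists, 233 in the untreated list alone and 273 in the treated list alone.

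The next comparison concerned the strand, although the lists do not state which strand of the duplex their strand column names. Of the deep gene-body peaks, 359 of 454 in untreated cells (79.1%, 75.1 to 82.6) and 379 of 498 in treated cells (76.1%, 72.2 to 79.6) were on the gene strand. For peaks near a transcript start of a coding gene the shares were 80.8% and 79.2%, and the difference from the deep peaks was within its interval in both lists (untreated -1.75 percentage points, -5.88 to 1.92). Coding-gene peaks near an end but not near a start were on the gene strand in 66.7% and 64.9%, below the deep peaks by 12.4 points (7.06 to 17.4) and 11.2 points (5.95 to 16.3). Few deep peaks had a midpoint inside an annotated gene of the other strand: 22 in untreated and 30 in treated cells.

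Peaks on the opposite strand recurred more often than those on the gene strand. In untreated cells 67 of 95 had a partner (70.5%) against 154 of 359 on the gene strand (42.9%), a difference of 27.6 points (16.5 to 37.3). In treated cells the shares were 65 of 119 (54.6%) and 160 of 379 (42.2%), a difference of 12.4 points (2.14 to 22.3). Counted as loci, 70.0% (63.9 to 75.5) of those in both lists were on the gene strand, against 88.0% (83.2 to 91.6) of those in the untreated list alone and 80.2% (75.1 to 84.5) of those in the treated list alone.

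Position along the gene separated the 2 strands. Relative position was 0 at the start and 1 at the end of the host gene record, and its median over deep peaks was 0.497 in untreated and 0.552 in treated cells, beside 0.473 for the deep territory. Peaks on the gene strand followed the territory, with 14.2% to 24.8% in each of 5 equal parts of the gene. Peaks on the opposite strand gathered toward the end: 36 of 95 in untreated cells (37.9%, 28.8 to 47.9) and 55 of 119 in treated cells (46.2%, 37.5 to 55.2) lay in the last of these parts, which held 16.2% of the territory. The first part held 8.42% and 9.24% of them, where the territory had 20.1%.

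**Figure D2:**
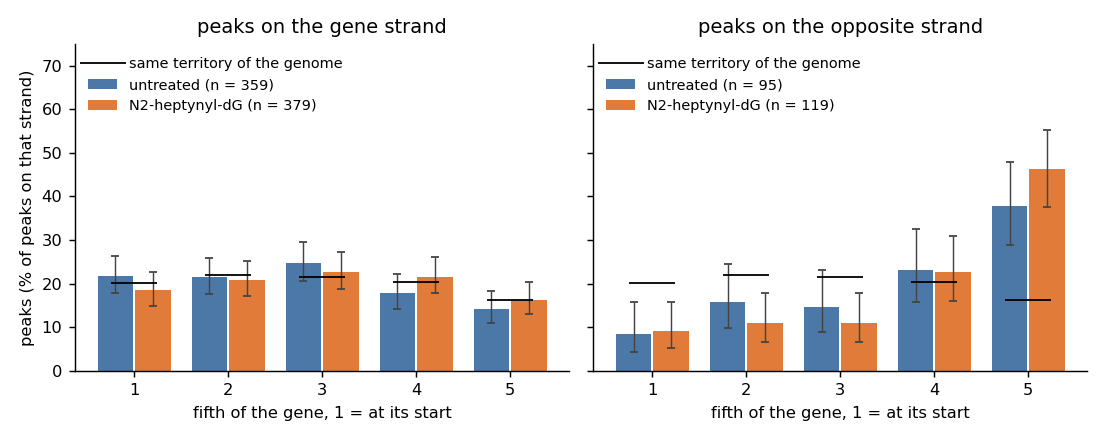
Share of deep gene-body peaks (% of peaks on that strand) in each of 5 equal parts of the host gene, numbered from its start, for peaks on the gene strand (left) and on the opposite strand (right), with 95% Wilson intervals and black lines for the deep territory. Peaks on the opposite strand reached 37.9% (untreated) and 46.2% (N2-heptynyl-dG) in the last part, where the territory had 16.2%, while those on the gene strand stayed between 14.2% and 24.8%.

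Many deep gene-body peaks lay past the annotated end of a coding gene transcribed in the direction of the peak strand. The end used was that of each gene's canonical transcript, the single one chosen by GENCODE. By the rule the midpoint of every such peak is more than 2 kb away, but a wide peak can reach closer to the end. Peaks that lay whole in the host record and over 2000 bp from every start and end numbered 369 in untreated and 411 in treated cells. This measure was chosen after values of the peaks had been seen. Within 10 kb past such an end lay 103 of 454 untreated peaks (22.7%, 19.1 to 26.8) and 128 of 498 treated peaks (25.7%, 22.1 to 29.7). For peaks on the gene strand the shares were 18.9% and 20.8%, and 1.41% of the territory lay there. For peaks on the opposite strand they were 36.8% (27.8 to 46.9) and 41.2% (32.7 to 50.2), where the territory had 1.13%. The reverse placement, within 10 kb before an end, held 1 of 95 and 2 of 119 peaks on the opposite strand. On the gene strand it held 61 of 359 untreated (17.0%) and 58 of 379 treated peaks (15.3%), where the territory had 5.24%, against 1.41% past an end. With the ends of all coding transcripts in place of canonical ends, 44.6% of the untreated gene-strand peaks lay past an end and 42.3% before one. The territory had 13.0% and 18.2% in these places. Starts were compared in the same way. Within 10 kb past a canonical start lay 26.46% of the untreated and 22.96% of the treated gene-strand peaks, where the territory had 7.51%. Both shares were above those past a canonical end, and so was the share of the territory. For peaks on the opposite strand the shares past a start were 3.16% and 5.04%, where the territory had 0.293%. Gene-strand peaks thus exceeded the territory near starts and on both sides of ends, so that their placement was not limited to ends. Relative to the territory, however, their share was highest past a canonical end, where only 1.41% of the territory lay. Peaks on the opposite strand lay far more often past an end than before one. The territory was uneven in the same direction, and neither placement was below its share of the territory.

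**Figure D3:**
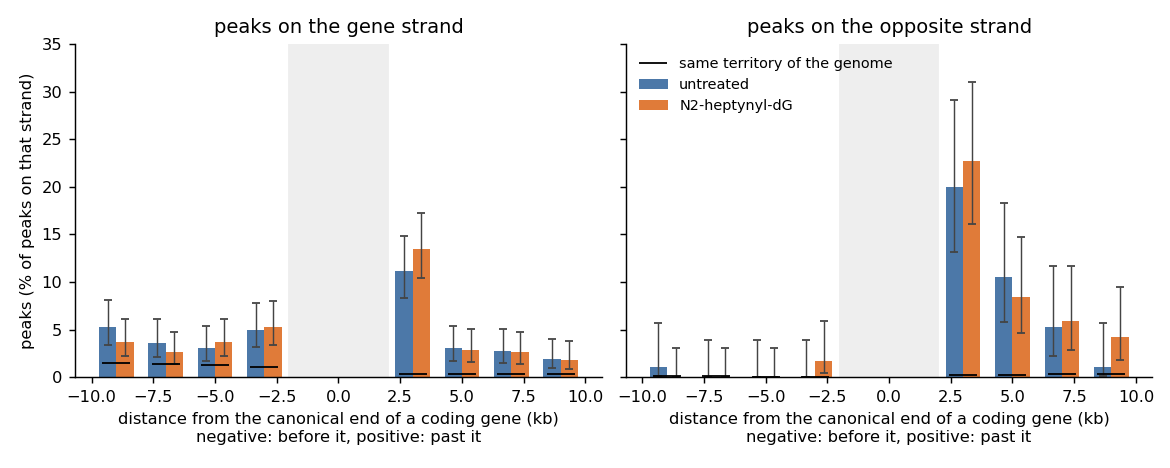
Share of deep gene-body peaks (% of peaks on that strand) by distance of the midpoint (kb, in bins of 2 kb) from the nearest canonical end of a coding gene on the peak strand, negative before the end and positive past it, with 95% Wilson intervals, black lines for the deep territory and a grey band where the rule allows no midpoint. The bin from 2 to 4 kb past an end was the highest, with 11.1% and 13.5% of the peaks on the gene strand and 20.0% and 22.7% of those on the opposite strand.

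In untreated cells the end was that of the host gene itself for 47 of these peaks, that of another gene on the gene strand for 21, and that of a gene on the opposite strand for 35. In treated cells the numbers were 50, 29 and 49. Where the end was that of another gene on the gene strand, some hosts were joint records named after that gene, such as CFAP298-TCP10L past CFAP298 in both lists. Other hosts there were named by an identifier alone, such as ENSG00000285635 past CPOX. The host gene's own end applied to peaks that a longer annotated transcript of the same gene still covered. RPS24 was one of these, with its peak centred 2569 bp past the canonical end in both lists. RPL37A, a protein of the large ribosomal subunit, held a treated peak of 3250 bp centred 2058 bp past its end. HS6ST1, a heparan sulfate sulfotransferase, had peaks 2003 bp past its end in untreated and 2253 bp past it in treated cells.

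The peaks on the opposite strand in this group lay past the end of a coding gene on the strand opposite to the host. Whether that gene converged on the host was not tested. Some, such as that of DPCD past the end of POLL, lay before the host's canonical start. TMPRSS9, a membrane serine protease, held a peak of 2250 bp at chr19:2421095-2423344 in untreated cells and of 2000 bp in treated cells, 3403 and 3278 bp past the end of TIMM13, a chaperone of mitochondrial protein import. KLB, the FGF coreceptor beta-klotho, held peaks 7003 and 7128 bp past the end of RPL9, a ribosomal protein gene. LSMEM2 held peaks past the end of IFRD2 that were 1500 bp wide in the untreated and 3250 bp in the treated list. The unpartnered peak of CFAP92 was 8855 bp past the end of ACAD9, an acyl-CoA dehydrogenase, and that of ITGA11, an integrin subunit, was 3808 bp past the end of FEM1B in treated cells. The peak of GCNA, 2000 bp wide on the gene strand in treated cells, was 9339 bp past the end of OGT, the O-GlcNAc transferase.

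Peaks past an end had a partner more often than the remaining deep peaks, 66.0% against 43.6% in untreated cells (difference 22.4 points, 11.5 to 32.3) and 57.8% against 40.8% in treated cells (17.0 points, 6.96 to 26.6). Where a partner had to overlap by 50% of both peaks, the difference was 14.4 points (3.58 to 25.0) in untreated cells and 9.13 points (-0.586 to 19.0) in treated cells, where its interval then included 0. They were also less often of the smallest width, with 23.3% and 19.5% at 500 bp against 38.2% and 44.3%. The part of width in that difference was not tested.

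Deep gene-body peaks were mainly intronic, as was the territory. The midpoint lay in an exon of the host gene for 31 of 454 untreated peaks (6.83%, 4.85 to 9.53) and 35 of 498 treated peaks (7.03%, 5.09 to 9.62), whereas 1.76% of the territory was exonic. This share depended on the distance limit: at 5000 bp it was 3.29% (1.41 to 7.47) and 1.02% (0.279 to 3.63), intervals that both include the value of the territory at 2000 bp. An exon was touched at any point by 15.9% and 15.3% of the peaks. Against the canonical transcript, 71.1% and 71.7% were intronic, beside 84.9% of the territory, and the first intron held 20.0% and 17.7%, beside 21.6%. Past the canonical end of the host, at any distance, lay 15.2% and 14.9%, where the territory had 3.43%. The midpoint fell in coding sequence for 13 untreated and 8 treated peaks. Besides TMPRSS9, these included KLB, whose untreated peak of 1500 bp covered 1105 bp of coding sequence, and MYH7B, a myosin heavy chain, whose untreated peak of 1500 bp covered 512 bp. All 3 of these peaks were on the opposite strand.

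A peak at the start of the host gene, within 1000 bp of one of its transcript starts, accompanied 186 untreated deep peaks (41.0%, 36.5 to 45.6) and 232 treated ones (46.6%, 42.2 to 51.0). Of the territory, 28.7% and 32.5% lay in genes with such a peak. The share was higher for peaks on the gene strand, 45.4% and 53.0%, than for those on the opposite strand, 24.2% and 26.1%, by 21.2 points (10.4 to 30.3) and 27.0 points (17.1 to 35.6). The neighbourhood of deep peaks was otherwise mostly empty: the nearest other peak of the same list was at a median distance of 27875 bp (untreated) and 26125 bp (treated).

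Base composition set deep gene-body peaks apart from both the territory and the peaks near a start. For composition, motif and skew, coding-gene peaks near an end only are not set beside them here. These traits are therefore not shown to be particular to deep peaks. Their median GC content was 50.4% (quartiles 45.5 and 56.0) in untreated and 50.8% (45.5 and 57.0) in treated cells, while 750-bp windows of the territory had a median of 40% (35.7 and 44.9). A GC content of 50% or more was found in 52.9% and 54.6% of the peaks and 9.89% of the windows. Few met the usual criteria of a CpG island in composition (GC over 50% and an observed-to-expected CpG ratio over 0.6): 11.1% and 10.1%, against 70.3% and 73.5% of peaks near a start, whose median GC content was 60.8% and 62.0%. GC skew, (G - C)/(G + C) on the peak strand, had a median of 0.011 in untreated and -0.016 in treated cells, beside 0.019 for the gene strand of the territory.

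The G-quadruplex motif searched was 4 runs of at least 3 G joined by loops of 1 to 7 bases of any kind. It was on the peak strand in 39 of 452 untreated peaks with sequence (8.63%, 6.38 to 11.6) and 57 of 496 treated peaks (11.5%, 8.98 to 14.6), and on the other strand in 10.8% and 11.3%. Among peaks of 750 bp it was on the peak strand in 8 of 117 (6.84%, 3.51 to 12.9) and 16 of 145 (11.0%, 6.91 to 17.2), where 3.24% of the 750-bp windows of the territory held it on the gene strand and 3.54% on the other. Peaks near a start held it in 23.4% and 24.5%. GC content differs between these sets in the same order, and its part in the motif shares was not tested.

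A small group of deep gene-body peaks stood at the edge of the skew range. A skew over 0.3, a limit chosen after values were seen, was found in 21 untreated (4.65%, 3.06 to 7.0) and 22 treated peaks (4.44%, 2.95 to 6.62). Of the 750-bp windows of the territory, 1.45% passed it on the gene strand and 0.781% on the other. Peaks near a start passed it in 0.573% and 0.509%, below the deep peaks by 4.07 points (2.46 to 6.43) and 3.93 points (2.42 to 6.12). Width was not matched in either comparison. The 43 peaks lay in 30 host genes, 38 of them on the gene strand, 39 in introns of the canonical transcript and 24 with a partner. Of the 43, 29 matched themselves at 60% or more of positions when shifted by a fixed period of 4 to 120 bases, as did 81 of all 948 deep peaks with sequence. An uneven base composition, for which the 43 were picked, raises such matching by itself, and its part was not tested.

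**Figure D4:**
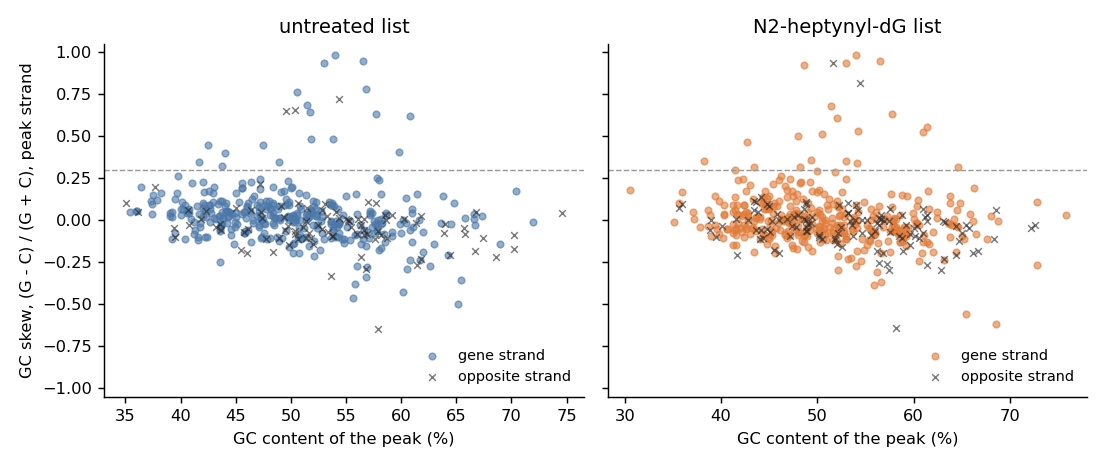
GC skew on the peak strand against GC content (%) for each deep gene-body peak with sequence in the untreated list (left, n = 452) and the N2-heptynyl-dG list (right, n = 496), with circles for the gene strand, crosses for the opposite strand and a dashed line at a skew of 0.3. Most peaks lie near a skew of 0, and 21 and 22 peaks lie above the line, up to 0.985 in BAHCC1.

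BAHCC1, a chromatin protein, had the most skewed peak: in intron 2 at chr17:79398681-79399680, with the same borders in both lists, it held 536 G and 4 C on the gene strand and repeated with a period of 28 bases (60.3% of positions matching). CELF2, an RNA-binding regulator of splicing, had a peak of 750 bp in intron 8 with a skew of 0.948 and a period of 26 bases (76.7%), also with identical borders. CEP72, a centrosomal protein, had a peak of 1750 bp in intron 11 with a skew of 0.632 and a period of 13 bases (62.5%). These 3 peaks had the same borders in both lists, but 46.9%, 55.3% and 80.6% of their 31-base words occur more than once in the genome. Copies within the same tandem array are counted, so these shares do not show copies outside the peak.

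TERT, the catalytic subunit of telomerase, had a peak in intron 6, 750 bp wide in the untreated list and 1000 bp in the treated one, with skews of 0.618 and 0.525 and a period of 36 bases. KDM4B, a histone demethylase, had a skewed peak (0.782) in intron 2 in the untreated list alone. PCMTD2 had the peak with the most G-quadruplex motifs, in both lists, 500 bp at chr20:62918304-62918803 with 15 motifs and a skew of 0.940, past the canonical end of the gene. This peak repeated with a period of 6 bases (82.4% of positions matching). BET1L, a SNARE protein of the Golgi, had a peak with 12 motifs at chr11:175251-176000, and TUBB8B, a tubulin gene, one with 8 motifs. Both had a period of 6 bases and were in the treated list alone. The central 200 bases of the PCMTD2 and BET1L peaks were mostly units of GGGTTA and close variants. Short reads from such repeats can match several places, within the repeat or outside it, which the recurring words do not tell apart. Of the words of the TERT peak, 90.1% recur in untreated and 76.8% in treated cells. For the PCMTD2 peak the share was 75.5%, and for the BET1L peak 74.0%. Over 50% of the words recurred in 249 of the 952 deep gene-body peaks, and none in 255.

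SLIT2, a secreted guidance ligand of Robo receptors, held the most loci together with NBPF10, 7 each. In SLIT2 (chr4:20253528-20622184) there were 5 peaks per list, all on the gene strand and in introns, and a peak at its start in both lists. The untreated peaks were centred 10778, 12778, 262278, 271028 and 335153 bp from the start of the gene record. The treated peaks were centred at 11028, 12903, 85153, 207903 and 262403 bp, so that 3 loci were in both lists and 4 in a single list. The 2 loci nearest the start had no recurring words. The peak at 271028 bp, in untreated cells alone, had a skew of 0.348.

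**Figure D5:**
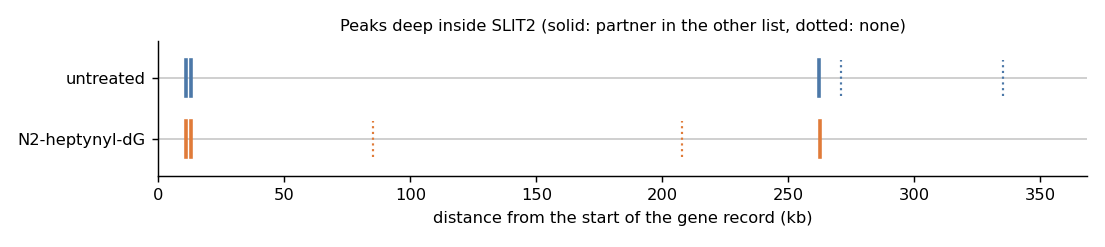
Map of the deep gene-body peaks of SLIT2 in the untreated list (top) and the N2-heptynyl-dG list (bottom), by distance (kb) of the peak's midpoint from the start of the gene record, with solid marks for peaks with a partner in the other list and dotted marks for peaks without. Each list has 5 peaks, of which 3 are shared and lie near the start and at about the same place past the middle of the gene.

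NBPF10 belongs to a family of near-identical copies on chromosome 1, and 83.6% to 100% of the words of its peaks recur in the genome, so its 7 loci are uncertain. GPR180 held 4 loci, of which none was shared, although a pair of them in intron 7 lay side by side, at chr13:95276176-95276675 in treated and chr13:95276676-95277175 in untreated cells. CROCC, a component of the ciliary rootlet, also held 4 loci. LIN9, of the cell-cycle regulatory MuvB complex, PIBF1, TPCN2, a lysosomal channel, and FAM156A held 3 each.

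The peak farthest from any transcript start was in FSTL5, 153259 bp away, on the opposite strand and in untreated cells alone. CNTLN, a centriolar protein, had a peak 133963 bp from a start in the untreated list and 133838 bp in the treated one, and CSMD3 one at 127386 bp with the same borders in both. At the other extreme, the peaks just inside the limit of 2000 bp, by distance to the nearest start or end, were in MEAK7 (2002 bp), HS6ST1 (2003 bp) and CCDC57 (2008 bp) in untreated cells, and those just outside it in LIPE (1998 bp), SYNPO (1997 bp) and DNAH1 (1996 bp). In treated cells they were in ENSG00000285920 and SNRPD3 (both 2009 bp) and PACSIN2 (2013 bp) inside it, and in KLF9 (2000 bp), BORCS8-MEF2B (1992 bp) and COX20 (1987 bp) outside it.

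Few genes of the groups tied to the question of the study held a deep peak, and these lists are described by counts alone. Deep peaks were in 3.04% of coding genes with deep territory in untreated and 3.25% in treated cells. Of 19 genes that process R-loops and have deep territory, none held a deep peak in untreated cells and FANCD2, a Fanconi anemia protein, held one in treated cells, where 91.3% of its words recur. Of 16 genes of polymerase kappa and nucleotide excision repair none held one in either list. Of 24 genes at common fragile sites, which are long and break under replication stress, SDK1 alone held one, in untreated cells. Of 5 genes the study used in its other assays, CLSPN, a checkpoint adaptor, held a treated peak of 1000 bp, 4816 bp past its own canonical end. The study used CLSPN as a control, since R-loops at its promoter were at a similar level in both conditions. This peak had no partner and lay at another site than that promoter.

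Of 43 chromatin regulators with deep territory, 6 held a deep peak in untreated and 3 in treated cells. EHMT1, a histone H3K9 methyltransferase, and SMARCA4, the ATPase of the BAF remodelling complex, held peaks in both lists, with partners in each case. TET1, a DNA demethylase, SETD1B, a histone H3K4 methyltransferase, and KDM4B held peaks in untreated cells alone. The SMARCA4 peaks were 7146 and 7271 bp and the EHMT1 peaks 9823 and 9573 bp past the canonical end of their own gene, and 96.1% and 97.7% of the words of the EHMT1 peaks recur.

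Between the lists, 6 properties of the deep gene-body peaks were set side by side. The treated minus untreated difference was -3.50 percentage points (-9.80 to 2.84) for the share with a partner, -2.97 (-8.23 to 2.35) for the gene strand, 0.200 (-3.12 to 3.46) for an exonic midpoint, 2.86 (-1.01 to 6.70) for the G-quadruplex motif, 3.02 (-2.45 to 8.42) for the place past a canonical end and 5.62 (-0.692 to 11.9) for a peak at the host's start. Every one of these 6 intervals included 0. Median GC skew on the peak strand stood apart: the interval of the median was 0 to 0.021 in untreated and -0.030 to -0.0015 in treated cells, and these did not overlap. Without peaks in which over 50% of words recur they were 0.0041 to 0.028 and -0.026 to 0.0029, again apart, but with a limit of 5000 bp they were -0.013 to 0.034 and -0.044 to -0.0040, which overlap. All these intervals take peaks of 1 list as units, and 237 of the 743 loci were in both lists. Since each list stands alone, the gap in skew does not show that the conditions differed. Nor do the other intervals show that the conditions were alike.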

How the data were processed

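Per the labels, HEK293T cells, untreated or exposed to N2-heptynyl-dG, were labelled with N3-kethoxal and profiled by spKAS-seq. The authors trimmed reads (Trim Galore), aligned them to hg19 (Bowtie2), removed duplicates (Picard) and followed an earlier published procedure to define R-loops. Versions and peak thresholds are not given in the sources used here. The deposited values used here are peak positions and strands, 1 list per condition, with no score. Signal and input data were not used here.

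Peaks were placed on GENCODE release 44 lifted to GRCh37 by their midpoints. Partners overlapped by at least 1 bp on the same strand. The deep territory was sampled every 1000 bp with 750-bp windows. Shares carry 95% Wilson intervals, differences of shares Newcombe intervals. Peaks on chromosome Y, where the reference is masked (4 deep peaks), have no sequence measures. Recurring words are 31-base words found more than once in the genome, on either strand, with copies inside the same peak counted.

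The members and gene lists were chosen with earlier results of these data known. Genes named were the hosts with the most loci, the widest peaks with and without a partner, those farthest from a start, those beside the 2000 bp limit, the widest in coding sequence, those in the gene lists and those with the most motifs. The measure past canonical ends, the skew limit of 0.3 and the genes named for them, and the 4 skewed sequences, were chosen after values were seen. Alternatives varied the distance limit, width, overlap rule, motif loops, start window and host definition. Scripts used matplotlib 3.10.9, numba 0.67.0, scipy 1.17.1, pandas 2.3.3 and numpy 2.4.6 under Python 3.11.15, and were checked on simulated data. A few genes and sequences that the rules above would name are not reported here.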

Additional observations from a re-analysis of the deposited data

How the results depend on the processing

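Of 136 alternative values, 95 stayed within the interval of the value reported (within 1.5 times for counts) and 41 moved. The share on the gene strand ranged from 72.4% to 83.6% over its alternatives. Values are given for untreated, then treated, cells. With a limit of 1000 bp the deep peaks numbered 899 and 968, the partner share was 57.5% and 53.6%, the exonic share 15.6% and 15.1% and the share past a canonical end 33.8% and 36.7%. With a limit of 5000 bp they numbered 152 and 197, the gene-strand share was 83.6% and 82.2%, the exonic share 3.29% and 1.02% and the share past an end 6.58% and 6.60%, which the limit itself bounds; the partner share moved in treated cells (37.6%), as did median GC content (52.3%) and skew (-0.032), and the motif share in untreated cells (5.96%). With peaks wider than 500 bp alone, they numbered 296 and 309 and the partner share was 55.7% and 54.4%; in untreated cells the share with a start peak was 45.9%, median GC content 49.3% and skew 0.025, and in treated cells the motif share was 14.9% and the share past an end 33.3%. A reciprocal overlap of 50% gave partner shares of 40.3% and 37.8%. Counting any overlap with an exon gave 15.9% and 15.3%. Motif loops of up to 12 bases gave 14.6% and 17.9%. Asking for the start peak on the gene strand gave 31.1% and 35.3%. Without peaks in which over 50% of words recur, an alternative chosen after seeing the data, the share past an end was 27.6% and 30.0%, and inside the host's canonical transcript, also chosen afterwards, 13.7% and 16.7%. Apart from settings that alter the peaks themselves, the cause of these moves was not tested.

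No paired analysis was possible because the positions used here form a single list for each condition, with no value per replicate. Without heights or a second list, neither the variation between replicates nor the depth behind a peak was measured.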

Other observations

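Deep gene-body peaks were unevenly spread over the chromosomes. Per Mb of deep territory they were densest on chromosome 19, at 2.16 in both lists, and next on chromosome 22, at 1.31 in untreated and 1.83 in treated cells, the chromosomes whose territory had the highest median GC content (48.0% and 46.4%). Chromosome 18 had 0.093 and 0.325 per Mb, from 2 and 7 peaks, and chromosome 8 had 0.284 in both. Chromosome X held 10 peaks in untreated and 23 in treated cells, and chromosome 16 held 25 and 16. With 1 list per condition these differences between lists were not tested.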
